A study of Mus musculus with 24 samples.

Results

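The erythroid genes described here are 33 genes of red cell formation, chosen by symbol from a list that runs from the globins and the factors that switch them on to the red cell membrane and iron handling. Of the 33 genes, 32 have an entry among the 21948 protein-coding genes used, and Ahsp, the alpha-globin chaperone, was not analysed here. They were measured in RNA of sorted skeletal cells from male mice on postnatal day 10, in 24 libraries that form 6 groups of 4. All groups share the same gate, namely cells negative for CD45, Ter119, CD31, Thy1, 6C3 and CD105 and positive for CD200, and each was split on embigin, a surface protein encoded by Emb and written EMB here. The tissue was spine or the femur and tibia, and the spine cells were also split on GFP. In the vertebrae, GFP+ cells are given as Zic1-Cre positive and GFP- cells as Zic1-Cre negative, and the long bone cells are all given as Zic1-Cre negative. The genotype label reads WT for every sample, so the Cre and reporter alleles rest on the titles and the design text. This gives EMB+ and EMB- groups for vertebral GFP+ cells, for vertebral GFP- cells and for long bone cells, which are titled GFP-. The titles call the replicates biological without stating whether animals were pooled or shared, and the p-values rest on the variation among libraries, which may be partly technical.

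Red cells arise in bone marrow from erythroid progenitors that divide under erythropoietin, fill with hemoglobin and, in mammals, lose the nucleus. The transcription factors Gata1, Tal1 and Klf1 drive this programme, and Gata1 and Klf1 bind short GATA and CACCC motifs at globin and other erythroid genes. A spectrin network tied to the anion exchanger band 3 gives the cell its shape, and iron enters through the transferrin receptor for the synthesis of heme. The Ter119 antigen marks late erythroid cells and red cells, so a gate that leaves out Ter119 is meant to leave these out.

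The unit is FPKM, that is fragments counted per kilobase of transcript and scaled to library size, so levels are per length, the read depth is unknown and no counting interval is given. FPKM summed to between 382364 and 568495 per library, and 10158 to 11204 genes reached 1 FPKM. Emb ranged from 30.1 to 56.5 FPKM over the EMB+ libraries and from 0.238 to 1.32 over the EMB- libraries, and the cartilage collagen Col2a1 was at 21746 FPKM or more in every library. For the 4 vertebral GFP- EMB+ libraries, title and cell type label contradict each other, and the label decided the group. Long bone EMB- libraries were less alike: the lowest correlation of a pair of them over genes was 0.925, against 0.978 or more within the other groups. Replicate 4 of this group differed from the rest in its erythroid genes, as given below. Counts of calls without that replicate are given beside the comparisons that use the group.

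The 250 bases before the transcription start of 4 of the genes are shown because they hold the motifs of the factors described below. They are taken from RefSeq on GRCm38.p6 and read 5′ to 3′ on the strand of the gene, and capitals mark GATAA or its reverse complement TTATC and CACCC or its reverse complement GGGTG. Hba-a1, an adult alpha-globin, has its window at chr11:32283422-32283671 on the plus strand, with 1 match of the first motif and 2 of the second. Hbb-bs, an adult beta-globin, has 1 match of each at chr7:103827929-103828178 on the minus strand. Klf1 has 1 match of each at chr8:84901732-84901981 on the plus strand, and Epor, the erythropoietin receptor, has 1 and 2 at chr9:21963577-21963826 on the minus strand.
Hba-a1: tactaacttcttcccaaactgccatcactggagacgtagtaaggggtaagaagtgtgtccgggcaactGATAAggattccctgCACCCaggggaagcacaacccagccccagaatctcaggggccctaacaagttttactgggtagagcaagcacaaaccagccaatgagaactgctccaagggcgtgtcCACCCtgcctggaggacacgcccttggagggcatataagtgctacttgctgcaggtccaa
Hbb-bs: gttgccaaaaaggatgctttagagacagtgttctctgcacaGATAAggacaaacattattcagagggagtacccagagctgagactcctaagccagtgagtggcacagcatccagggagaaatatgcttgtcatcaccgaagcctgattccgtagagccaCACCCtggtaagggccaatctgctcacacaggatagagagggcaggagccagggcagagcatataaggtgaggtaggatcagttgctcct
Klf1: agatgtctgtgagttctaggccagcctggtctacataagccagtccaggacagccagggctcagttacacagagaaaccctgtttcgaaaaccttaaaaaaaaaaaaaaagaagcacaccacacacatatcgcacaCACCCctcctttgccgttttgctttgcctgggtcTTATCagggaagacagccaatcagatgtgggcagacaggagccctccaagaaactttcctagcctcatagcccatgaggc
Epor: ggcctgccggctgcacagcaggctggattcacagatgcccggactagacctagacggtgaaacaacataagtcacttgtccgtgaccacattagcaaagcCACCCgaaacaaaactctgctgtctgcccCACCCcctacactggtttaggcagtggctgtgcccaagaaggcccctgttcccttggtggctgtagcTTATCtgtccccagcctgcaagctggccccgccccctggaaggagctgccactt
In Hba-a1 and Hbb-bs the GATAA lies farther from the start than any CACCC, and in Klf1 and Epor the TTATC lies nearer to the start than any CACCC. Of the 33 genes, 25 had a window, in 30 windows because some genes have several starts. The first motif was found in 15 of these 30 windows (50.0%) and in 22.6% of the 32851 windows of all genes. The second was found in 22 of 30 (73.3%) and in 52.0% of all windows, and both together in 13 of 30 (43.3%) and 10.1%. Both strands were searched, and a match is a description of letters, not of binding.

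The adult globins come in near-identical copies, which bears on every separate value given for them. The coding sequences of Hba-a1 and Hba-a2 in GENCODE M21 have 426 bases each and differ at 1 base (99.77% identical), and those of Hbb-bs and Hbb-bt have 441 bases each and also differ at 1 base. The differing base is the last of the 60 bases shown for each copy and is in capitals; the stretch covers coding bases 322 to 381 of the alpha pair on chromosome 11 and 358 to 417 of the beta pair on chromosome 7.
Hba-a1: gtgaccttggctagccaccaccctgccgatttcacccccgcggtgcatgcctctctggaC
Hba-a2: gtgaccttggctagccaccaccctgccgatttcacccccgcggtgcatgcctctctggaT
Hbb-bs: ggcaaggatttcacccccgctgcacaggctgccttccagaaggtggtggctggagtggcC
Hbb-bt: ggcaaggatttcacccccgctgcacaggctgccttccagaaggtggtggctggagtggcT
The division of reads between the copies of a pair is therefore uncertain, and their sum is firmer than either. Another 7 genes of the set have exons that overlap another annotated gene, which a library that does not mark the strand cannot separate. For Epb41, Prdx2 and Sptb the overlapping genes include a protein-coding one, and for Add2, Ank1, Icam4 and Slc25a37 only antisense or unclassified ones.

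Every one of the 32 genes had its highest mean in long bone EMB- cells, and 31 had their second highest in vertebral GFP- EMB- cells. The exception was Tfrc, whose second highest mean was in vertebral GFP- EMB+ cells. For 30 of the 32 genes, every library of either of these EMB- groups lay above all 16 libraries of the other 4 groups, and the exceptions in both cases were Tfrc and Bpgm. No such counts were made over all genes, so they describe the set only. Some of the genes, named below, reached 1 FPKM in at least 4 libraries only through these EMB- groups. Relative to long bone EMB- cells, the median gene stood at 30.8% in vertebral GFP- EMB- cells and at 1.63% for the GFP+ cells of that gate. Among EMB+ cells it stood at 1.53% in long bone, 1.31% in vertebral GFP- and 1.09% in vertebral GFP+ cells. In bulk samples, fewer erythroid cells, less RNA per erythroid cell and a different level in other cells cannot be told apart, and this holds for all values below.

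**Figure D1:**
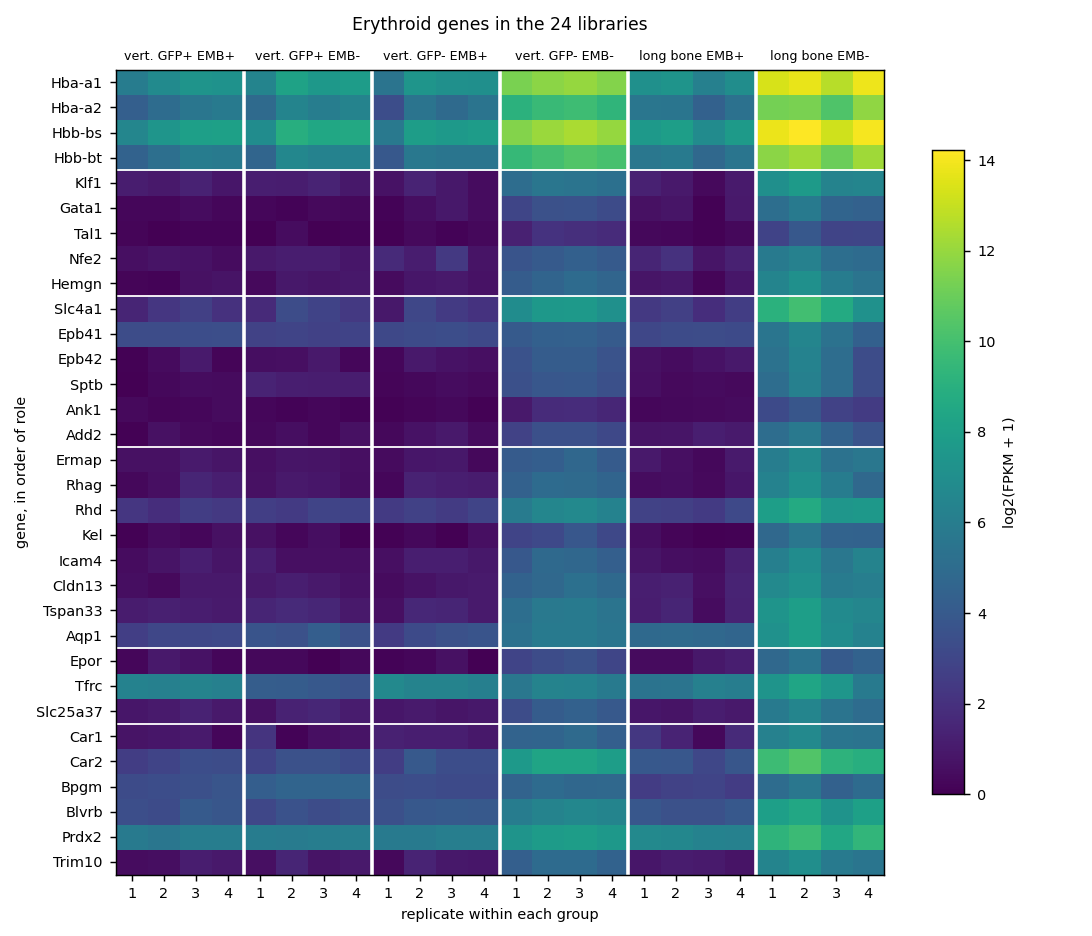
Levels of the 32 genes (rows, in order of role, white lines between roles) in the 24 libraries (columns, replicates 1 to 4 of each group), as log2(FPKM + 1) in colour. All but Tfrc and Bpgm are higher in every vertebral GFP- EMB- and long bone EMB- library than in any of the other 16 libraries.

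Hemoglobin genes were among the most abundant genes of these 2 groups. Hba-a1 was at 10359.8, 13728, 6565 and 15071 FPKM in the long bone EMB- libraries (replicates 1 to 4, the order used throughout) and at 2606, 3401, 4102 and 3026 in the vertebral GFP- EMB- libraries. In vertebral GFP+ cells it was at 85.4, 296, 190.9 and 231 in the EMB- and 61.8, 113, 166.2 and 149 in the EMB+ libraries. The other EMB+ libraries held 42.9, 171.5, 138 and 133 FPKM (vertebral GFP-) and 140.4, 163.7, 73.6 and 124 (long bone). The 2 high groups overlapped neither each other nor the rest, and the 4 low groups overlapped. Ranked by mean FPKM among 21948 genes, Hba-a1 was number 4 in long bone EMB- and number 9 in vertebral GFP- EMB- cells, and between number 225 and number 552 elsewhere. The value never reached 0: the lowest library, vertebral GFP- EMB+ replicate 1, held 42.9 FPKM.

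Hbb-bs was likewise highest in long bone EMB- and next in vertebral GFP- EMB- cells. It was at 14488, 19178, 9354 and 16907 FPKM in long bone EMB-, 3109.9, 4402, 5578 and 3992 in vertebral GFP- EMB- and 119, 475, 356 and 382 in vertebral GFP+ EMB- libraries. In EMB+ cells it was at 92.2, 169.3, 259 and 271 in vertebral GFP+, 52.3, 238, 209.7 and 229 in vertebral GFP- and 199, 251, 116 and 217 in long bone libraries. The 4 hemoglobin genes together took 6.88% ± 1.74 (SD, n = 4) of all FPKM of a long bone EMB- library. The share was 2.34% ± 0.485 for vertebral GFP- EMB- and 0.170% ± 0.0765 for vertebral GFP+ EMB- cells. For EMB+ cells it was 0.0926% ± 0.0284 in long bone, 0.0921% ± 0.0364 in the GFP+ and 0.0837% ± 0.0395 in the GFP- vertebral cells. In each vertebral group replicate 1 had the lowest Hba-a1 value of its 4 libraries, and the same replicate was the lowest for 30 of the 32 genes in vertebral GFP- EMB- cells.

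Alpha and beta chains stood in similar proportions in all groups. The alpha to beta FPKM ratio averaged 0.737 ± 0.0896 in long bone EMB- cells, 0.762 ± 0.0474 in the vertebral GFP- cells of that gate and from 0.677 to 0.708 in the other groups. These group means lay within the range of the 4 vertebral GFP+ EMB- libraries, 0.588 to 0.801. Hba-a1 exceeded Hba-a2 by a factor of 4.70 ± 0.630 in long bone EMB- and 4.58 ± 0.213 in vertebral GFP- EMB- cells and of 3.06 to 4.09 on average elsewhere. Hbb-bs exceeded Hbb-bt by a factor of 4.07 ± 0.384 and 4.15 ± 0.303 in the same groups and of 4.43 to 4.80 elsewhere. These 2 copy ratios rest on the uncertain division of reads. The embryonic globins Hba-x, Hbb-bh1 and Hbb-y were listed at 0 in all 20 libraries outside the long bone EMB- group and reached at most 0.344, 0.556 and 0.463 FPKM in it.

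The transcription and nuclear factors were also highest in long bone EMB- and next in vertebral GFP- EMB- cells, at far lower levels. Klf1, the factor that binds CACCC motifs of beta-globin, was at 135, 216, 82.4 and 86.7 FPKM in long bone EMB- and 32.7, 47.2, 42.97 and 37.6 in vertebral GFP- EMB- libraries. In the other 16 libraries it lay between 0.290 and 1.71 FPKM, around the filter minimum of 1 FPKM. Gata1, a factor that binds GATA motifs, was at 33.9, 55.4, 22.8 and 20.6 in long bone EMB- and 6.96, 10.42, 11.2 and 8.37 in vertebral GFP- EMB- libraries and at 0.984 or less in all others. The high groups did not overlap the low ones for either gene.

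Tal1, a helix-loop-helix factor that acts with Gata1, averaged 8.48 ± 3.85 FPKM (SD, n = 4) in long bone EMB- and 2.46 ± 0.732 in vertebral GFP- EMB- cells, and no other library exceeded 0.408. Hemgn, which encodes the nuclear protein hemogen, averaged 82.4 ± 42.1 and 23.3 ± 5.82 in these groups and at most 0.686 elsewhere. Nfe2, a subunit of the factor NF-E2 that also serves megakaryocytes, averaged 48.8 ± 21.1 and 15.6 ± 3.32. Outside the high groups Nfe2 had the widest range of the 5 factors, 0.403 to 4.20 FPKM, with 2.18, 1.21, 4.20 and 0.693 FPKM in vertebral GFP- EMB+ and 0.520, 0.654, 0.608 and 0.403 in vertebral GFP+ EMB+ libraries.

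The membrane skeleton and its anchor were represented by 6 genes. Slc4a1, which encodes the anion exchanger band 3, was at 539, 972, 419 and 144 FPKM in long bone EMB- and 119, 190.7, 204 and 138 in vertebral GFP- EMB- libraries, against 0.905 to 9.06 in the other 16 libraries. Long bone EMB- replicate 4 fell within the range of the vertebral GFP- EMB- libraries for this gene, while the other 3 libraries of its group lay above it. Epb42, protein 4.2, averaged 39.95 ± 28.3 and 14.1 ± 3.12 FPKM, and Sptb, beta-spectrin, 36.5 ± 25.9 and 12.03 ± 2.34. Add2, beta-adducin, averaged 29.4 ± 17.5 and 8.42 ± 2.001 and Ank1, ankyrin, 7.89 ± 3.61 and 1.93 ± 0.684, so that Ank1 was the least abundant gene of the set in both groups. Epb41, protein 4.1, was at 47.7 ± 27.9 and 17.7 ± 2.44 and kept means of 6.22 to 9.14 FPKM in the low groups, a smaller gap than that of the other 5.

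Of the 8 surface and blood group genes, 7 were near the filter limit outside the 2 high groups or a few FPKM above it, and Aqp1 was not. Rhd, a Rh blood group protein, averaged 259.6 ± 112 FPKM in long bone EMB- and 82.9 ± 18.6 in vertebral GFP- EMB- cells and 3.87 to 5.85 elsewhere. Tspan33, a tetraspanin, averaged 154 ± 70.7 and 47.2 ± 10.2, Cldn13, a claudin, 93.8 ± 39.04 and 28.4 ± 6.88, and Icam4, an adhesion protein of the red cell surface, 80.2 ± 30.7 and 21.6 ± 6.18. Rhag, the partner of the Rh protein, averaged 77.04 ± 47.5 and 25.7 ± 4.73, Ermap 64.7 ± 27.6 and 18.8 ± 4.64, and Kel, the Kell blood group protein, 29.9 ± 12.98 and 8.87 ± 3.02. Outside these groups the means of the last 3 lay between 0.158 and 1.05 FPKM.

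Aqp1, the water channel, which other cells also make, was at 146, 255, 122 and 79.4 FPKM in long bone EMB- and 38.9, 58.2, 55.1 and 44.9 in vertebral GFP- EMB- libraries. Long bone EMB+ libraries were at 27.8, 29.7, 27.3 and 24.2 and did not overlap the remaining vertebral groups, which were at 11.8, 10.6, 18.3 and 10.40 in GFP+ EMB-, 4.36, 8.16, 10.7 and 11.7 in GFP- EMB+ and 5.32, 7.24, 7.12 and 7.89 in GFP+ EMB+ cells. Its order was thus long bone above vertebral among EMB+ cells, unlike that of the globins.

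**Figure D2:**
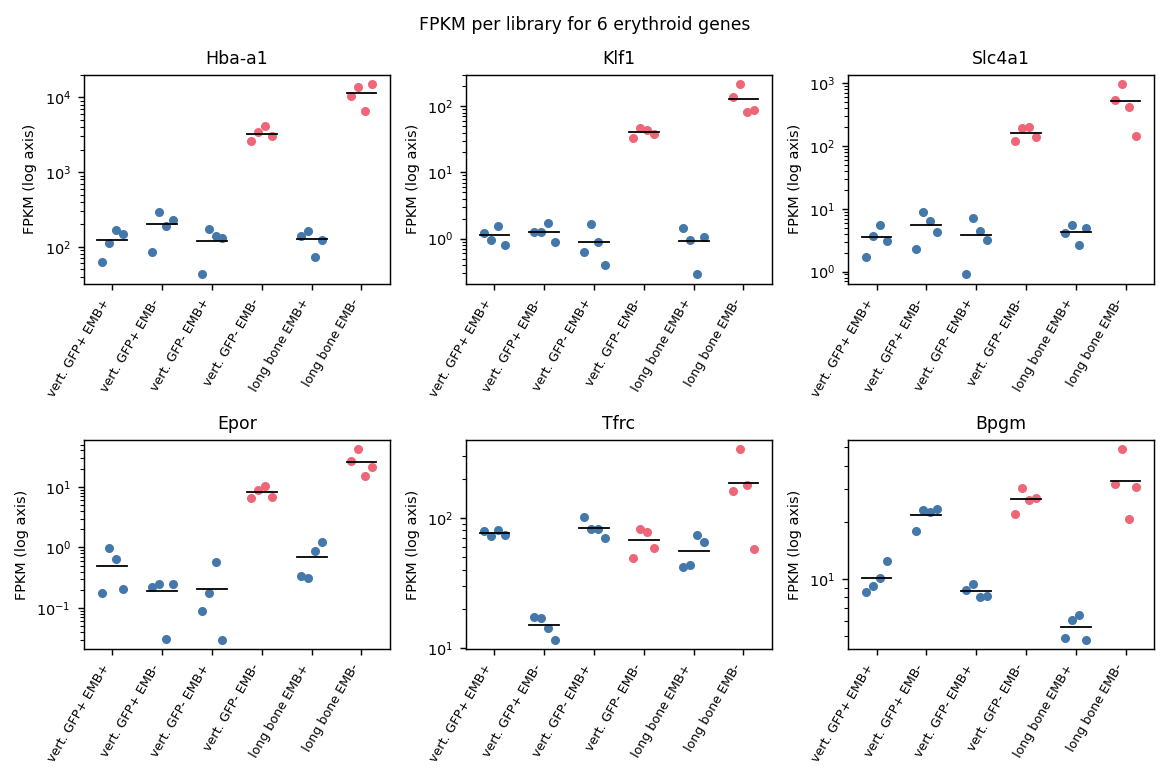
FPKM (log axis) of 6 genes in each library of the 6 groups, with the group mean as a black line and the vertebral GFP- EMB- and long bone EMB- groups in red; a value listed at 0 is drawn at 0.03. Hba-a1, Klf1, Slc4a1 and Epor separate the red groups from the blue ones in every library, and Tfrc and Bpgm do not.

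Epor, which encodes the erythropoietin receptor, was at 26.7, 41.7, 15.4 and 21.1 FPKM in long bone EMB- and 6.52, 9.03, 10.5 and 6.75 in vertebral GFP- EMB- libraries. In the other 16 libraries it was at 1.25 or less and was listed at 0 in 1 of them. Slc25a37, mitoferrin-1, which carries iron into mitochondria, was at 54.6, 87.4, 43.2 and 32.2 and 8.88, 16.4, 20.3 and 14.5 in the same groups and at 1.85 or less elsewhere. The 2 genes thus kept the separation of the globins at a fraction of their level.

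Tfrc, the transferrin receptor, which dividing cells of many kinds make, had another pattern. It was at 161.8, 335, 179.0 and 57.7 FPKM in long bone EMB- libraries, with replicate 4 below the other 3 and within the range of other groups. EMB+ libraries were at 101, 81.5, 81.7 and 70.1 (vertebral GFP-), 79.1, 72.5, 79.95 and 73.2 (vertebral GFP+) and 42.02, 43.7, 73.2 and 65.2 (long bone). Vertebral GFP- EMB- libraries were at 49.6, 82.1, 78.2 and 58.2, and these 4 ranges overlap. Vertebral GFP+ EMB- libraries, at 17.3, 16.96, 14.4 and 11.6, lay below all others. A list of 12 cell cycle genes was lowest in the same group, with a summed FPKM of 40.3 to 48.3. It was highest in long bone EMB- cells, with 392 to 1189. Between these ends the order differed from that of Tfrc. Every vertebral GFP- EMB- library was above the vertebral GFP+ EMB+ libraries in this sum, but mean Tfrc was lower in the GFP- EMB- group. The part of the cell cycle genes in the Tfrc levels was not tested.

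The 6 enzymes and enzyme-like genes fell into those that were low outside the 2 groups and those that were not. Car2, a carbonic anhydrase that osteoclasts also make, was at 874, 1324, 597 and 475 FPKM in long bone EMB- and 210.4, 312, 317 and 239 in vertebral GFP- EMB- libraries and at 14.9 or less in the other 16. Car1, the other carbonic anhydrase, averaged 66.1 ± 28.7 and 23.2 ± 4.43, and Trim10, a RING finger protein of terminal erythroid cells, 79.1 ± 38.6 and 25.05 ± 6.12. Blvrb, a biliverdin reductase, averaged 266 ± 89.2 and 81.1 ± 14.2 in the 2 groups and 9.33 to 13.7 elsewhere. Prdx2, an abundant red cell peroxidase, averaged 618 ± 194 and 203 ± 33.3 and 58.2 to 87.6 elsewhere.

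Bpgm, which makes the 2,3-bisphosphoglycerate that lowers the oxygen affinity of hemoglobin, departed most from the rest. It was at 31.9, 48.8, 20.7 and 30.9 FPKM in long bone EMB-, 22.2, 30.4, 26.4 and 26.8 in vertebral GFP- EMB- and 17.98, 23.4, 22.7 and 23.7 in vertebral GFP+ EMB- libraries. EMB+ cells were lower, at 8.51, 9.23, 10.1 and 12.5 in vertebral GFP+, 8.80, 9.46, 8.01 and 8.18 in vertebral GFP- and 4.87, 6.05, 6.49 and 4.78 in long bone libraries. The gene thus separated EMB- from EMB+ libraries in all 3 settings, and the vertebral GFP+ EMB- group sat with the other EMB- groups.

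The first comparison asked how EMB+ cells differ from EMB- cells of the same site and GFP state. In long bone, all 32 genes were lower in EMB+ than in EMB- cells, from -6.49 ± 0.40 for Hba-a1 to -1.48 ± 0.31 for Tfrc on the log2(FPKM + 1) scale (± SE), a scale that understates the change of low genes. Klf1 changed by -6.01 ± 0.24, adjusted p = 1.81e-15, Slc4a1 by -6.34 ± 0.47, adjusted p = 4.57e-10 and Prdx2 by -2.76 ± 0.17, adjusted p = 4.01e-12. Adjusted p-values are from limma with Benjamini-Hochberg adjustment over all 11767 genes tested. Of those genes, 16.0% were lower and 17.5% higher in this comparison, and the median change was 0.08, against -4.72 over the 32 erythroid genes. Gata1, Tal1, Hemgn, Epb42, Ank1, Add2, Ermap, Kel and Epor, 9 of the 32 genes, passed the expression filter only through the 2 high groups and so had to differ from the rest. Their values, such as the differences of -4.35 for Gata1 and -3.95 for Epor in long bone, and the counts and medians over the set are a description here and below. All 32 calls were also made without long bone EMB- replicate 4. The call of Tfrc was lost with a block on neighbouring title codes (limma adjusted p = 0.0593), which did not pair these libraries.

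In vertebral GFP- cells, 31 of the 32 genes were lower in EMB+ than in EMB- cells and none was higher. The changes reached -5.21 ± 0.47, adjusted p = 7.84e-09 for Slc4a1, -4.89 ± 0.40, adjusted p = 4.87e-10 for Hba-a1, -4.73 ± 0.28, adjusted p = 8.73e-13 for Car2 and -4.46 ± 0.24, adjusted p = 1.81e-13 for Klf1, and the smallest called one was -1.003 ± 0.23, adjusted p = 0.000946 for Epb41. Tfrc was not called (0.33 ± 0.31, adjusted p = 0.372), but with the replicate number as a block, by which these libraries were paired, it was called higher in EMB+ cells (limma adjusted p = 0.0452). Over all genes tested 10.6% were lower and 41.7% higher, and the medians were 0.30 over all genes and -3.40 over the erythroid genes. All EMB+ libraries of this comparison are the ones whose titles conflict with their cell type label. Markers of neutrophils moved the other way: all 10 listed genes were higher in the EMB+ cells, and their summed FPKM was 558 to 3886 there against 166.6 to 681. Their part in the result was not tested.

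In vertebral GFP+ cells, only 4 of the 32 genes passed the threshold. Tfrc was higher in EMB+ cells (2.28 ± 0.31, adjusted p = 1.67e-06), and Bpgm (-1.05 ± 0.17, adjusted p = 2.26e-05), Sptb (-0.91 ± 0.32, adjusted p = 0.0235) and Aqp1 (-0.78 ± 0.26, adjusted p = 0.0168) were lower. Over all genes 42.1% were higher and 7.85% lower, so that 1 of 32 higher is a smaller and 3 of 32 lower a similar share, and the median change was -0.17 over the erythroid genes and 0.32 over all genes. Quantile normalization and median-ratio scaling brought the median of all genes to 0.03 and 0.01 and each called 1 of the 32 higher and 5 lower. Hba-a1 gave -0.67 ± 0.40, adjusted p = 0.165, Hbb-bs -0.70 ± 0.45, adjusted p = 0.196 and Klf1 -0.10 ± 0.24, adjusted p = 0.753, none of them called in this fit, which has no replicate block. With the replicate number as a block, Hba-a1 was called lower in EMB+ cells (limma adjusted p = 0.0439). So were Hba-a2 (0.0431), Hbb-bt (0.0409), Slc4a1 (0.0247) and Rhd (0.0176). Epb41 (0.00021) and Blvrb (0.0465) were then called higher, and Hbb-bs and Klf1 were still not called. Correlations between these same-numbered libraries, 0.0971 to 0.279, did not all pass the 0.1 set for pairing. The 12 cell cycle genes were all higher in EMB+ cells here, with a summed FPKM of 151 to 175.7 against 40.3 to 48.3, beside the rise of Tfrc, and their part in it was not tested. The count moved between 2 and 7 when single libraries were left out: without vertebral GFP+ EMB+ replicate 1 the calls of Aqp1 and Sptb were lost and 2 remained, and without vertebral GFP+ EMB- replicate 1, the library lowest in globins in its group, all 4 globins were called lower in EMB+ cells and Sptb was not called. The call of Aqp1 was also lost without vertebral GFP+ EMB- replicate 3 (limma adjusted p = 0.0757). Sptb was near the filter minimum, at 1.16 to 1.67 FPKM in the EMB- and 0.0107 to 0.405 in the EMB+ libraries. Its call was lost with a pseudocount of 5 (-0.27, limma adjusted p = 0.422), and its exons overlap another protein-coding gene.

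**Figure D3:**
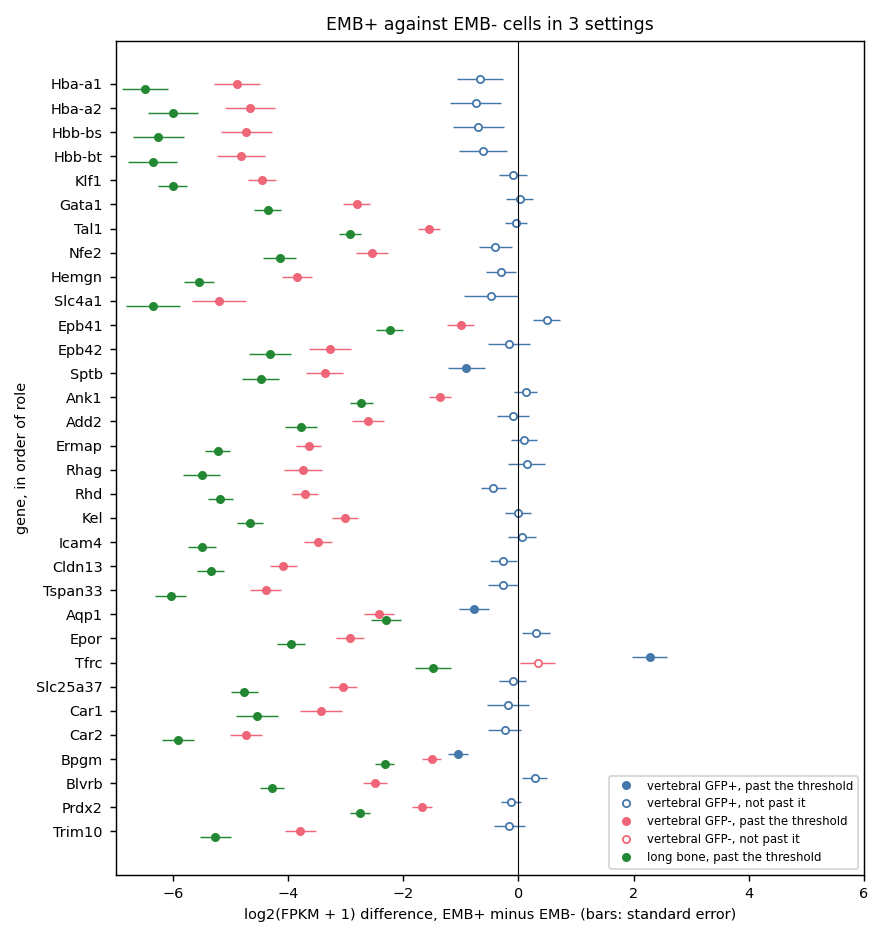
Difference of EMB+ minus EMB- cells in log2(FPKM + 1) (x axis, bars are standard errors) for the 32 genes (y axis) in vertebral GFP+ (blue), vertebral GFP- (red) and long bone cells (green); filled points passed the threshold. Green and red points lie left of 0 for all genes but Tfrc, at 0.33 in vertebral GFP- cells, and most blue points lie near 0.

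Whether these changes differed between settings was tested directly as differences of the EMB changes. Against vertebral GFP- cells, the change in vertebral GFP+ cells was more positive for 31 of 32 genes, all but Bpgm (0.46 ± 0.24, adjusted p = 0.4), while 3.20% of all genes were more positive and 1.67% more negative. Slc4a1 gave the largest difference (4.73 ± 0.67, adjusted p = 6.61e-05), followed by Car2 (4.49 ± 0.40, adjusted p = 6.57e-08) and Klf1 (4.36 ± 0.35, adjusted p = 3.69e-08). Against long bone, it was more positive for all 32 genes, from 1.27 for Bpgm to 5.91 for Klf1, with 25.0% of all genes more positive and 5.57% more negative, and for all 32 also without long bone EMB- replicate 4. The change in vertebral GFP- cells was more positive than that in long bone for 24 of 32 genes, against 24.7% of all genes, with 5.07% more negative. The 8 genes not called there were Hba-a2, Hbb-bs, Hbb-bt, Slc4a1, Epb42, Sptb, Car1 and Aqp1, and the median difference was 1.47 against 0.27 over all genes. This count fell to 17 under quantile normalization and median-ratio scaling, which brought the median of all genes to -0.02 and 0.01, and to 16 with a pseudocount of 0.1. Without long bone EMB- replicate 4 it was 26, with Epb42, Slc4a1 and Sptb gained and Hba-a1 lost (limma adjusted p = 0.0965), and with library weights it was 28, with the same 3 genes and Car1 gained. A replicate block gained Hba-a2 (limma adjusted p = 0.00342), Hbb-bs (0.000579), Hbb-bt (0.000201), Slc4a1 (0.0359), Sptb (0.032) and Car1 (0.0475). In long bone that block rests on neighbouring codes in the titles, which did not pair the libraries.

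The second comparison asked how vertebral GFP+ cells differ from GFP- cells. Among EMB- cells, 31 of 32 genes were lower in GFP+ cells and none was higher, with 6.22% of all genes lower and 2.25% higher. Car2 changed by -4.77 ± 0.28, adjusted p = 1.1e-11, Slc4a1 by -4.74 ± 0.47, adjusted p = 1.64e-07, Klf1 by -4.17 ± 0.24, adjusted p = 1.1e-11, Hba-a1 by -4.14 ± 0.40, adjusted p = 3.99e-08 and Tfrc by -2.07 ± 0.31, adjusted p = 2.44e-05. Bpgm was not called (-0.26 ± 0.17, adjusted p = 0.494). This comparison shares the vertebral GFP- EMB- libraries with the EMB comparison of vertebral GFP- cells. All 12 cell cycle genes were also lower in the GFP+ cells, with a summed FPKM of 40.3 to 48.3 against 220.1 to 299, and their part in the result was not tested.

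Among EMB+ cells, by limma none of the 32 genes was called between GFP+ and GFP- cells, with 0.391% of all genes higher and 1.71% lower, and at an unadjusted p under 0.05 there was 1, Nfe2. It gave -0.86 ± 0.28, adjusted p = 0.17, and in a fit that blocks on the replicate number, which paired these libraries, it was called lower in GFP+ cells (limma adjusted p = 0.0125). Hba-a1 gave 0.09 ± 0.40, adjusted p = 0.993 and Klf1 0.19 ± 0.24, adjusted p = 0.977. Neutrophil genes differed strongly in this comparison, with 10 of 10 lower in GFP+ cells, and were at 17.6 to 238 against 558 to 3886 in summed FPKM.

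The third comparison set vertebral against long bone cells. In the EMB- gate, vertebral GFP+ cells were lower for all 32 genes, where 40.4% of all genes were lower and 7.40% higher, and the median was -4.89 over the erythroid genes and -0.27 over all genes. Hba-a1 changed by -5.89 ± 0.40, adjusted p = 1.21e-11, Car2 by -6.27 ± 0.28, adjusted p = 4.1e-15 and Klf1 by -5.74 ± 0.24, adjusted p = 1.67e-15. Bpgm was closest to 0 (-0.52 ± 0.17, adjusted p = 0.0153), and its call was lost under quantile normalization (adjusted p = 0.686), in median-ratio scaling (0.35) and without long bone EMB- replicate 2 (0.0995) or vertebral GFP+ EMB- replicate 1 (0.061). Without long bone EMB- replicate 4 all 32 genes were again called lower. GFP state and site change together in this comparison.

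Vertebral GFP- EMB- cells were lower than long bone EMB- cells for 31 of 32 genes, with 40.2% of all genes lower and 8.05% higher. The changes lay in a narrow range: the median was -1.55, against -0.28 over all genes, and the 31 called genes ran from -1.12 for Epb42 to -1.82 for Hbb-bt. Hba-a1 gave -1.75 ± 0.40, adjusted p = 0.000861, Klf1 -1.57 ± 0.24, adjusted p = 1.16e-05, Prdx2 -1.56 ± 0.17, adjusted p = 1.02e-07 and Bpgm, the gene not called, -0.26 ± 0.17, adjusted p = 0.226. As a ratio of mean FPKM, long bone EMB- cells exceeded vertebral GFP- EMB- cells by a median factor of 3.25, from 1.25 for Bpgm to 4.09 for Ank1. In 25 of the 32 genes the 2 groups did not overlap, and in the other 7, Slc4a1, Epb41, Epb42, Sptb, Rhag, Tfrc and Bpgm, they did. This overlap was not counted over all genes, so the count describes the set only. The count of calls was 31 without long bone EMB- replicate 4 and 27 under quantile normalization, which brought the median of all genes to 0.02 and lost Hba-a1, Hbb-bs, Slc4a1 and Epb42. Without long bone EMB- replicate 2 the calls of Slc4a1 (limma adjusted p = 0.0844) and Epb42 (0.0877) were lost.

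Among EMB+ cells few of the erythroid genes were called between the sites. Vertebral GFP+ cells were higher than long bone cells for Bpgm (0.76 ± 0.17, adjusted p = 0.00177) and lower for Aqp1 (-1.85 ± 0.26, adjusted p = 6.02e-06) and Prdx2 (-0.58 ± 0.17, adjusted p = 0.0166), 1 and 2 of 32, where 8.66% of all genes were higher and 12.9% lower. The call of Prdx2 was lost without long bone EMB+ replicate 1 (adjusted p = 0.0657) or 2 (0.05) or vertebral GFP+ EMB+ replicate 2 (0.0758), and the calls rose to 5 without long bone EMB+ replicate 3 or long bone EMB- replicate 4. Vertebral GFP- cells were higher for Bpgm (0.56 ± 0.17, adjusted p = 0.0212) and lower for Aqp1 (-1.61 ± 0.26, adjusted p = 5.28e-05), 1 and 1 of 32, where 8.49% were higher and 10.6% lower. The call of Bpgm here was lost without long bone EMB+ replicate 1 (0.0651) or 4 (0.0676) or vertebral GFP- EMB+ replicate 2 (0.0633), and the calls rose to 4 without long bone EMB- replicate 4. The globins were not called, with -0.07 for Hba-a1 and -0.05 for Hbb-bs in the first of these and -0.16 and -0.26 in the second.

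Within long bone EMB- cells the libraries differed in which erythroid genes they held. Replicate 2 was the highest for 30 of the 32 genes, and replicate 4 the highest for the other 2, Hba-a1 and Hba-a2. Replicate 4 was also the lowest for 18 genes. Set against the mean of replicates 1 to 3, it held 1.18 times (Hbb-bs) to 1.78 times (Hba-a2) the level of the globins. For the 6 membrane skeleton genes the ratio was 0.176 (Epb42) to 0.511 (Ank1), with a median of 0.273. For the 5 factors it was 0.448 (Hemgn) to 0.743 (Tal1), for the 8 surface genes 0.294 (Rhag) to 1.01 (Icam4) and for the enzymes 0.502 (Trim10) to 1.07 (Prdx2). Tfrc was at 0.256. This replicate also had the lowest summed FPKM of the cell cycle list in its group, 392 against 515 to 1189, and the highest of macrophage genes, 11.7 against 3.19 to 6.83. Cd200, the gene of the positive gate, was at 563 FPKM in it, against 190.7 to 239 in the other 3. With 1 library there is no test of this difference, and the part of these values in it was not tested.

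**Figure D4:**
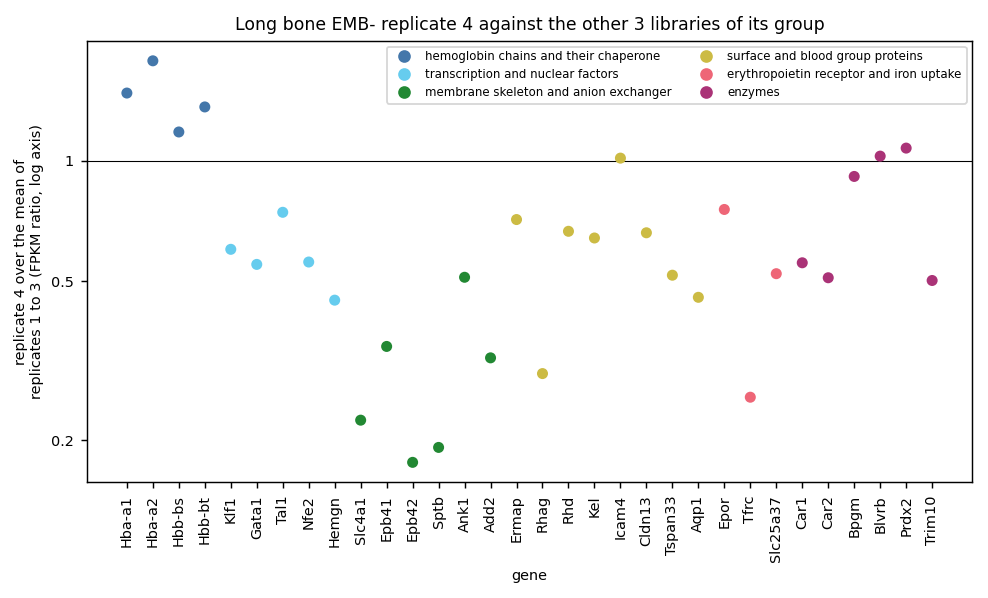
FPKM of each gene in long bone EMB- replicate 4 divided by its mean over replicates 1 to 3 of the group (log axis), in order of role and coloured by it. The 4 globins lie above 1, from 1.18 to 1.78, and the 6 membrane skeleton genes below it, from 0.176 to 0.511.

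Leaving replicate 4 out lowered the ratio of long bone to vertebral GFP- EMB- cells for the globins, which ran from 3.48 to 3.65 with it, and raised its median for the other roles named here. Replicates 1 to 3 of long bone EMB- cells exceeded vertebral GFP- EMB- cells by a factor of 2.91 to 3.36 for the globins, 3.51 to 4.10 for the factors, 3.23 to 4.66 for the membrane skeleton and 3.42 to 3.70 for the surface genes. Replicates spread less in vertebral GFP- EMB- cells, where the coefficient of variation over 4 libraries had a median of 22.3% over the 32 genes, than in long bone EMB- cells, where it was 44.6%.

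Other genes of the same pathways, taken from lists chosen with earlier results of these data known, moved with the set. Of 22 further erythroid genes, 21 had an entry and were tested: 19 were lower in EMB+ than in EMB- cells in vertebral GFP- cells and 21 in long bone, against 3 in vertebral GFP+ cells, and none was higher in any of these. The shares of all genes called lower were 10.6%, 16.0% and 7.85% in the same order. Gypc, glycophorin C, averaged 109 ± 55.4 FPKM in long bone EMB- and 41.5 ± 6.85 in vertebral GFP- EMB- cells and 11.8 to 16.7 elsewhere. Isg20, an exonuclease, changed by -4.78 ± 0.17, adjusted p = 2.67e-16 in long bone, and Bnip3l, a mitophagy receptor that many cells make, by -0.83 ± 0.13, adjusted p = 1.35e-05.

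All 8 enzymes of heme synthesis were lower in EMB+ than in EMB- cells in long bone and in vertebral GFP- cells, and in vertebral GFP+ cells 1 was higher and none lower. Over all genes tested, 16.0% were lower in long bone and 10.6% in vertebral GFP- cells. In vertebral GFP+ cells 42.1% of all genes were higher and 7.85% lower. Alas2, the erythroid form of the first enzyme, was at 362, 607, 262 and 257 FPKM in long bone EMB-, 72.97, 127, 135 and 109 in vertebral GFP- EMB- and 1.06 to 9.09 in the other libraries. Its change was -6.09 ± 0.37, adjusted p = 4.48e-12 in long bone, -4.62 ± 0.37, adjusted p = 4.35e-10 in vertebral GFP- and -0.62 ± 0.37, adjusted p = 0.169 in vertebral GFP+ cells. Alad, a later enzyme that all cells need, changed by -3.34 ± 0.18, adjusted p = 1.92e-13 in long bone.

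Markers of other blood cells were set beside the erythroid genes. Of 6 early progenitor genes, Kit, Gata2, Myb and Flt3 were at 1.50 FPKM or less in every library. Cd34, which other cells also make, was at 27.3 to 34.7 in long bone EMB- cells and at 17.4 or less elsewhere. Summed FPKM of 9 megakaryocyte and platelet genes ranged over 18.9 to 146 in long bone EMB-, 16.1 to 111 in long bone EMB+ and 6.97 to 53.9 in vertebral GFP- EMB- cells, and was 13.9 or less in every library of the other groups. Mast cell and basophil genes summed to at most 2.65 FPKM in any library, and Fcer1a, Cma1 and Tpsb2 were listed at 0 in all. Of the 10 neutrophil genes, 4 were higher in EMB+ than in EMB- long bone cells and none lower, and the sums were 123 to 950.1 and 222 to 854. Over all genes tested 17.5% were higher and 16.0% lower there. Macrophage genes summed to 3.19 to 11.7 FPKM in long bone EMB- cells, the highest group, where C1qa, C1qb and C1qc reached 4.52 at most while Adgre1 stayed at 0.115 or less there, and to 5.85 or less elsewhere.

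Endothelial genes summed to 8.03 FPKM at most, and none of the 8 passed the filter. The 6 B cell genes summed to 4.44 to 11.96 FPKM in long bone EMB- cells and to 9.22 at most elsewhere. Of 8 osteoclast genes, Ocstamp and Dcstamp were at 0.264 or less in every library, and Ctsk, Mmp9 and Acp5, the 3 tested, were lower in vertebral than in long bone cells in all 4 site comparisons. In those comparisons 10.6% to 40.4% of all genes were lower. Ptprc, which encodes CD45, was at 1.80 FPKM or less in every library and at 0.366 or less in the long bone EMB- group. Cell cycle genes moved with the erythroid ones in long bone, where all 12 were lower in EMB+ cells and Rrm2 changed by -3.51 ± 0.25, adjusted p = 4.51e-11, while in vertebral GFP- cells 3 of 12 were lower, among them Rrm2 at -1.58 ± 0.25, adjusted p = 1.51e-05, and none higher. Over all genes tested 16.0% were lower in long bone and 10.6% in vertebral GFP- cells. The part of these cell types in the differences of the erythroid genes was not tested.

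**Figure D5:**
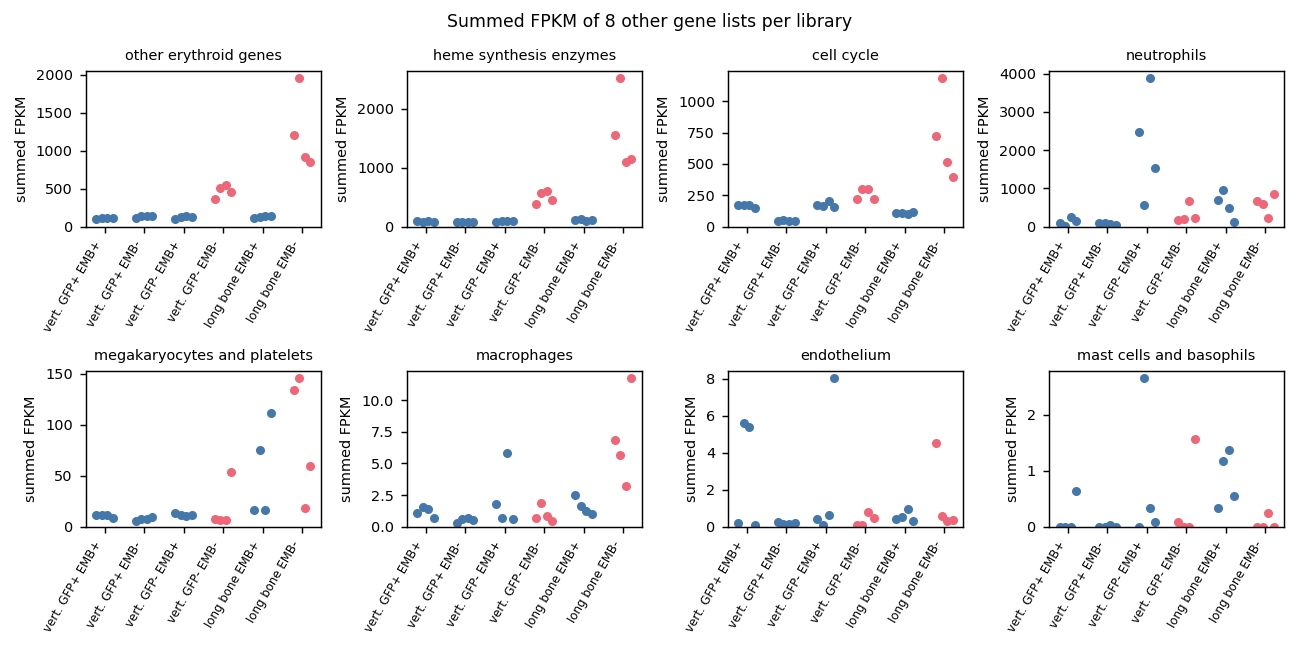
Summed FPKM per library (y axes start at 0 and differ) of 8 other gene lists in the 6 groups, with vertebral GFP- EMB- and long bone EMB- libraries in red. Other erythroid genes and heme synthesis enzymes are highest in every red library, neutrophil genes reach 3886 in vertebral GFP- EMB+ cells, and macrophage, endothelial and mast cell genes stay at or below 11.7.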

How the data were processed

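The deposited table holds FPKM per gene, which the authors computed from the mapped reads, per the file headers, for 24 libraries of total RNA from sorted cells. Libraries were made with SMART-Seq v4 and Nextera XT, a kit pair that does not mark the strand, per the labels' protocols. The tools named are bcl2fastq 2.19, STAR 2.5.2 and Cufflinks 2.1.1 with GRCm38, per the submitters' processing notes. The read depth is not given in the sources used here, and FPKM without depth gives no counting interval. Rescaling to a library's total means that abundant genes, such as the globins, lower the FPKM of the rest.

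Of 22053 entries, 46 repeat an identifier, 56 repeat a symbol and 3 genes have a failed estimate, which left 21948 genes. Genes with 1 FPKM or more in at least 4 libraries, 11767 of them, entered limma (version 3.58.1, R version 4.3.3) as log2(FPKM + 1), in a single fit of the 6 groups with 18 residual degrees of freedom and robust, trended variances. The 9 comparisons and 3 differences of comparisons were each adjusted over all genes tested by Benjamini-Hochberg, with a threshold of 0.05. Python 3.11.15 with pandas 2.3.3 made the summaries. The script was tested on simulated data.

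The genes and lists were chosen with earlier results of these data known. All 33 erythroid genes are named, and of each other list up to 3 genes with the largest mean FPKM, plus Alas2, Gypc, Ptprc and a few that, like some others of these lists, are not reported here. Genes named for values at or near 0, the C1q genes, Gata2, Flt3 and Adgre1 were chosen after their values were seen. Ahsp and Zfpm1 were not analysed here. Samples were grouped by the cell type label and tissue. Deviations of same-numbered libraries from their group means correlated at 0.135 to 0.236 between vertebral GFP- EMB+ and EMB-, 0.169 to 0.337 between GFP+ and GFP- EMB+ and 0.130 to 0.292 between GFP+ and GFP- EMB- cells, so the replicate numbers in the titles were taken to pair them. Alternatives were other pseudocounts, filters and scalings, a fit of only the compared groups, a replicate block, library weights, and leaving out each library or those with conflicting labels. Promoter windows are from RefSeq and coding sequences and exon overlaps from GENCODE M21, both on GRCm38.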

Additional observations from a re-analysis of the deposited data

Results flagged for a closer look

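In vertebral GFP- EMB+ cells, replicate 1 lay far below the other 3 libraries for Hbb-bs, at 52.3 FPKM, and for Hbb-bt, at 14.0 FPKM. In long bone EMB- cells, replicate 2 lay far above the others for Tal1, at 14.2 FPKM. Each exceeded Dixon's critical value for 4 samples. Over the 139 groups of values examined this made 3, and chance flags about 1 in 20 groups.

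The EMB change differed between settings by limma's test of the difference. The change in vertebral GFP+ cells was more positive than that in vertebral GFP- cells for 31 of 32 genes, with differences of 4.22 for Hba-a1, 4.03 for Hbb-bs, 4.36 for Klf1, 2.84 for Gata1, 4.73 for Slc4a1, 1.65 for Aqp1 and 1.94 for Tfrc on the log2(FPKM + 1) scale. It was more positive than that in long bone for 32 of 32, with 5.82 for Hba-a1, 5.56 for Hbb-bs, 5.91 for Klf1, 4.38 for Gata1, 5.87 for Slc4a1, 1.52 for Aqp1, 3.76 for Tfrc and 1.27 for Bpgm. The change in vertebral GFP- cells was more positive than that in long bone for 24 of 32, with 1.59 for Hba-a1, 1.55 for Klf1, 1.54 for Gata1, 1.82 for Tfrc and 0.82 for Bpgm. In this last difference the call of Hba-a1 (limma adjusted p = 0.0352) was lost with no filter (0.0609), under quantile normalization (0.326), in median-ratio scaling (0.136), with rescaling that leaves out hemoglobin (0.0822) and in 8 of the fits that leave out 1 library (0.0531 to 0.0965). The call of Bpgm was lost in the same 3 scalings (0.202, 0.184 and 0.0813), and that of Gata1 with a pseudocount of 0.1 (0.0878). Gata1 passed the expression filter only through the 2 high groups, so its values are a description.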

How the results depend on the processing

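Among the 9 comparisons and 3 differences, the counts of 24 or more calls stayed within 1.5 times their value under every alternative tried, apart from the fits that could not be made. The largest relative fall was that of the difference between vertebral GFP- cells and long bone, from 24 to 16 with a pseudocount of 0.1. No call reversed. The small counts moved. In vertebral GFP+ cells, the 4 calls of EMB+ against EMB- cells became 7 in a fit of only the compared groups and 2 to 7 with single libraries left out. With the replicate block there were 11, 3 higher and 8 lower, among them Epb41 higher (limma adjusted p = 0.00021) and Hba-a1 (0.0439), Hba-a2 (0.0431), Hbb-bt (0.0409) and Slc4a1 (0.0247) lower. The correlations of 0.0971 to 0.279 between these same-numbered libraries did not all pass the 0.1 set for pairing, although the numbers paired the other vertebral groups. With the block Bpgm was also called in the difference between GFP+ and GFP- vertebral cells (0.0343). For GFP+ against GFP- among EMB+ cells, 0 calls became 1, Nfe2, with a pseudocount of 0.1, the replicate block or library weights, and 0 to 1 with single libraries left out. For vertebral GFP+ against long bone EMB+ cells, 3 calls became 5 with a pseudocount of 0.1 or library weights, 6 in a fit of only the compared groups and 2 to 5 with single libraries left out. For vertebral GFP- against long bone EMB+ cells, 2 calls became 1 with a pseudocount of 5, 4 in a fit of only the compared groups and 1 to 4 with single libraries left out. The cause was not tested. A block on neighbouring title codes, used in long bone because all EMB+ titles there carry number 1, did not pair the libraries (correlations of -0.0969 to 0.296). The hemoglobin share of vertebral GFP- EMB- cells was 2.95% without the 2 most abundant other genes. No replicate block could be fitted for the site comparisons of EMB+ cells. The stricter filter left fewer genes to test, 8056.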
